A study of Drosophila melanogaster with 2 samples.

Results

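Nuclear genes for the subunits of the oxidative phosphorylation complexes were examined for promoter peaks of the transcription factor Fer1. They were taken as the protein-coding genes of the Ensembl annotation of Drosophila melanogaster, on nuclear chromosomes, whose symbols start with ND-, UQCR-, COX or ATPsyn. This gave 80 of 13945 genes, with 40 of complex I, 9 of complex III, 16 of complex IV and 15 of complex V (the ATP synthase). The rule used symbols and no measured value, though the set was proposed with earlier results of these data known. The samples were whole embryos of mixed sex, 6 to 24 h old, of the transgenic strain Fer1-GFP, which expresses a Fer1-eGFP fusion with the tag at the C-terminus. Chromatin was recovered with an antibody against GFP and sequenced (ChIP-seq) in 2 biological replicates, which form 1 group. No untagged or input library was analysed here, how much of the Fer1 locus the transgene holds is not stated in the labels, and whole embryos mix all cell types. A gene was counted as having a promoter peak when a summit of the list of 7329 peaks past the authors' reproducibility threshold lay within 1 kb of one of its transcription start sites (TSSs).

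The oxidative phosphorylation complexes sit in the inner mitochondrial membrane. Complexes I, III and IV pass electrons from NADH to oxygen and pump protons, and the ATP synthase uses the proton gradient to make ATP. Most of their subunits are encoded in the nucleus, a few in mitochondrial DNA, and in flies many subunits have a second gene copy that is known for expression in the testis. Fer1 is a basic helix-loop-helix protein of the PTF1A family, and such proteins pair up to contact the E-box, CANNTG.

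A promoter peak was found at 36 of the 80 genes (45.0%, exact 95% binomial interval 33.8 to 56.5%), beside 33.1% of all coding genes. The share was 17 of 40 in complex I, 5 of 9 in complex III, 7 of 16 in complex IV and 7 of 15 in complex V, a range from 42.5 to 55.6%. The shares differed more by type of gene than by complex. Among 21 genes named as a paralogue of another subunit gene, with a symbol ending in L (17 genes) or in L and a digit (4 genes), 2 had a promoter peak (9.52%, interval 1.17 to 30.4%). Among the remaining 59 genes it was 34 (57.6%, interval 44.1 to 70.4%). For the symbols ending in L alone it was 1 of 17 (5.88%, interval 0.149 to 28.7%). That count was 0 of 17 with the highest peaks of replicate 1 alone. ND-MNLL was not counted among the paralogues, since its symbol spells amino acid letters and no gene ND-MNL is annotated. The intervals cover counting error over genes only, and genes are not replicates.

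Without the paralogue-type genes, 17 of 34 genes of complex I, 4 of 6 of complex III, 6 of 8 of complex IV and 7 of 11 of complex V had a promoter peak. Within complex I, 3 of 7 core subunits (those with bacterial counterparts that carry the electron path) and 14 of 27 accessory subunits had one. In the plot of shares by complex the paralogue-type genes were lower in all 4, but on few genes. In complex III 1 of 3 such genes had a peak (33.3%, interval 0.840 to 90.6%), near the 33.1% of all coding genes. In complex V it was 0 of 4 (interval 0 to 60.2%).

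**Figure D1:**
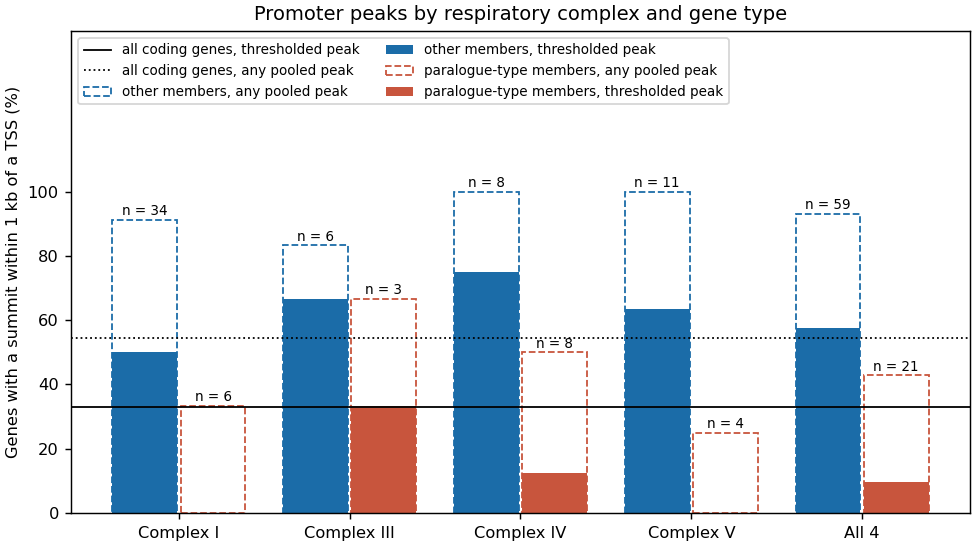
Share of genes (%) that have a promoter peak, by complex, for paralogue-type genes (red) and the other members (blue), with the number of genes above each bar. Filled bars count thresholded peaks and dashed outlines count any peak of the pooled list, and lines mark the same shares over all coding genes (33.1% and 54.4%). The filled bars stand at 57.6% for the 59 other members and at 9.52% for the 21 paralogue-type genes.

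Most of the remaining genes had an entry in the longer list of 30000 pooled peaks, which includes weak ones. The authors named that list peaks and background, so a weak entry need not be a site of binding. A summit of this list lay within 1 kb of a TSS at 64 of the 80 genes, beside 54.4% of all coding genes. The count was 55 of the 59 (93.2%) and 9 of the 21 paralogue-type genes (42.9%). Of the 25 non-paralogue genes without a thresholded peak, 21 had such a weaker peak, beside 31.9% of all coding genes without a thresholded peak, with signal values from 28.4 to 101.7 and a median of 75.6, and 20 of these lay within 200 bp of a TSS. The lowest signal in the thresholded list was 110.1, so the highest of these genes lay close under the threshold. ND-75, a core subunit of the electron input arm of complex I, had a pooled signal of 101.7, and ND-B17, an accessory subunit, had 101.2. In the single replicates ND-75 had 63.0 and 34.3, and ND-B17 had 74.4 and 30.5. By rank both stood higher in replicate 1 (8122 and 6557) than in replicate 2 (11118 and 12650).

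Only 4 of the 59 had no pooled peak within 1 kb. ND-23, a core subunit with iron-sulfur clusters, had a peak in replicate 2 alone, with a signal of 57.1 at rank 5806, 145 bp upstream of its TSS. The other 3, ND-AGGG, ND-MLRQ and UQCR-11, had no peak within 1 kb in either replicate. They lie on chromosome 3L and have the same nearest thresholded summit, 2087249, 450321 and 2231704 bp away. The 3 genes thus share 1 stretch without a summit in the thresholded list, and their nearest pooled summit is the same one too. Whether reads could be placed uniquely in this stretch was not tested.

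Signal values at the members were moderate. A signal value is the authors' own measure of the height of a peak and is read within its own list. The 3 lists have separate scales, so replicates are compared by rank, and their signal values are given side by side as data. Over the highest promoter peak of each of the 36 genes the median was 181.2 (quartiles 143.5 and 275.0, range 113.7 to 833.9), beside 202.2 over all coding genes with a promoter peak. The members were on the lower side, with 15 of 36 above that median and 1 among the 1000 highest peaks. With the 3664 highest peaks only, 18 of the 80 members (22.5%) had a promoter peak, beside 19.1% of all coding genes, a share near the background.

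The exception was ND-ASHI, an accessory subunit of complex I (the fly counterpart of human NDUFB8). Its promoter peak had a signal of 833.9 and ranked 258 of 7329. The same peak had 497.6 in replicate 1, at rank 254, and 349.5 in replicate 2, at rank 253. Its place in the order was thus nearly the same in both replicates. ND-ASHI lies on the minus strand of X from 6677262 to 6679118 (dm6), and the summit, at 6679353, is 235 bp upstream of a TSS of ND-ASHI and inside an intron of Fum1. Fum1 encodes fumarase, an enzyme of the tricarboxylic acid cycle, and is on the other strand. The summit was 287 bp upstream of the nearest TSS of Fum1. A TSS of Fum1 also lies 164 bp from another TSS of ND-ASHI. The peak thus counted for both genes, and which of them it concerns was not tested. The gene had a second, lower summit of 126.7 at 6678230.

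The sequences around the summits of 5 members show what lies under the highest peak of a non-paralogue gene whose window holds no annotated UTR, for complexes I, IV and V, and under the peaks of the only pair of paralogue-type genes that have one. Each line gives the 101 bases centred on the summit in dm6, on the strand of the gene, with E-boxes (CANNTG) in capitals.
ND-ASHI (chrX:6679303-6679403, minus strand): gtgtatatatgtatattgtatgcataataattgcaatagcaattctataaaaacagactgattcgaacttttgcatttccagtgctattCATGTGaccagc
COX7B (chr3L:17425342-17425442, plus strand): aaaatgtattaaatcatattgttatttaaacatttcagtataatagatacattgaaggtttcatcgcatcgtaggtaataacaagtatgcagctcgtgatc
ATPsynE (chr3R:14327861-14327961, plus strand): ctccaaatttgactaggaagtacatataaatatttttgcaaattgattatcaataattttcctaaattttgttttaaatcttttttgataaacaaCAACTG
UQCR-6.4L (chr3L:16567687-16567787, plus strand): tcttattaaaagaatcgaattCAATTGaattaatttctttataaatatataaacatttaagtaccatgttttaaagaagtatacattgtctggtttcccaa
COX7AL2 (chr2L:2193583-2193683, minus strand): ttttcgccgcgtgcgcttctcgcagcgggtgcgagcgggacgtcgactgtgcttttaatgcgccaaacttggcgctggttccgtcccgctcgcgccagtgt
The share of G and C was 31.7% at ND-ASHI, 28.7% at COX7B, 21.8% at ATPsynE and at UQCR-6.4L, and 64.4% at COX7AL2. E-boxes were at the edge of the window at ND-ASHI (CATGTG) and ATPsynE (CAACTG), and none was within 50 bp of the summit at COX7B and COX7AL2.

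In complex I the next highest peaks were at 2 core subunits of the electron input arm and 3 accessory subunits. ND-51, the flavin-binding subunit that accepts electrons from NADH, had a signal of 316.0 in the thresholded list, 202.4 in replicate 1 and 112.0 in replicate 2. Its summit was 133 bp upstream of the TSS, between ND-51 and CG13994, whose TSSs are 232 bp apart. ND-24, an iron-sulfur subunit of the same arm, had 299.7 in the thresholded list, 178.9 in replicate 1 and 114.4 in replicate 2. Here the summit was 113 bp downstream of the TSS, in the first part of the gene, and corolla starts 42 bp away on the other strand. The accessory subunits ND-MWFE, ND-13B and ND-42 followed. ND-MWFE had 295.9, with 186.2 and 117.4 in replicates 1 and 2, ND-13B had 276.3, with 161.2 and 115.4, and ND-42 had 274.5, with 148.8 and 115.8. The peak of ND-13B was at its own TSS (2 bp upstream), while those of ND-MWFE and ND-42 were 188 and 169 bp upstream and nearer to the head-to-head neighbours TppII and Cchl.

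The other 11 complex I genes with a promoter peak had signals from 113.7 to 220.1. In falling order they were ND-MNLL, ND-B22, ND-SGDH, ND-B18, ND-49, ND-15, ND-13A, ND-B8, ND-B14.5B, ND-B17.2 and ND-B14.5A, of which ND-49 is a core subunit. ND-15, with a thresholded signal of 143.0, had the widest gap in rank between replicates of all 36 members, with 108.6 in replicate 1 (rank 3762) and 17.6 in replicate 2 (rank 21685). At ND-SGDH the highest summit (201.2) was 911 bp upstream, in RhoGAP68F, and a lower one (144.2) was 3 bp from the TSS. The complex I genes without a promoter peak, besides those already named, were the core subunits ND-20 and ND-30, the accessory subunits ND-18, ND-19, ND-39, ND-ACP, ND-B12, ND-B14, ND-B14.7, ND-B15, ND-B16.6 and ND-PDSW, and the paralogue-type ND-20L, ND-24L, ND-49L, ND-51L1, ND-51L2 and ND-B14.5AL.

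Complex III peaks were lower and closer to each other, from 143.1 to 175.0. UQCR-C1 and UQCR-C2 are the large core proteins on the matrix side. UQCR-C2 had 164.0 in the thresholded list, 100.7 in replicate 1 and 64.7 in replicate 2, and UQCR-C1 had 150.2, with 90.6 and 56.4. Both summits were at the start of the gene, 38 and 4 bp downstream of a TSS, and UQCR-C1 shares its promoter with CycC, whose TSS is 26 bp away. UQCR-14 and UQCR-Q, small subunits, each had 2 summits, of which the higher was far from the TSS. For UQCR-14 it was 175.0 (98.3 and 74.0 in replicates 1 and 2), in the neighbour eas 897 bp upstream, with 131.8 at 79 bp from the TSS. For UQCR-Q it was 143.1 (88.9 and 55.7), 977 bp downstream, with 125.8 at 40 bp. None of these genes was among the 3664 highest peaks. UQCR-6.4 had a weaker pooled peak of 83.2 in place of a thresholded one.

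In complex IV the highest peak at a non-paralogue gene was that of COX6B, a subunit on the side facing cytochrome c. It had 280.4 in the thresholded list, 161.1 in replicate 1 and 121.5 in replicate 2, with the summit 19 bp downstream of the TSS in the 5′ UTR, where CG18809 overlaps it. CG33932 starts 96 bp away on the other strand. COX7B, a small subunit spanning the membrane, had 263.2, with 174.8 and 89.3, and its summit was 85 bp upstream, in the gap to Sec3. COX5A and COX5B, matrix-side subunits next to the catalytic core, had 246.1 (141.9 and 101.3) and 187.4 (108.8 and 80.7), at 95 and 211 bp upstream. Both were closer to a TSS of the head-to-head neighbours glo and IFT52 than to a TSS of the COX gene. The summit at COX5A nevertheless lay inside COX5A, in an intron between its annotated TSSs. COX7C had 147.7 and COX7A had 125.7. COX4 and COX8 were the non-paralogue genes of complex IV without a promoter peak, with pooled signals of 28.4 and 72.3. At COX8 the replicates placed their peaks differently, with 55.0 in replicate 1 at 66 bp upstream and 80.2 in replicate 2 at 572 bp upstream (rank 3478).

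The ATP synthase had its highest peak at ATPsynE, subunit e, which takes part in joining the enzyme into dimers. The signal was 380.8 in the thresholded list, 224.2 in replicate 1 and 155.9 in replicate 2. That summit, however, was 843 bp downstream of the TSS, beyond the end of the gene and nearer to spn-B (the head-to-head neighbour Afti is on the other side), and the summit at the ATPsynE promoter itself, 18 bp downstream of the TSS, had 154.4. ATPsynC, the subunit of the rotor ring, had 283.9 (163.9 and 130.1 in replicates 1 and 2) at 3 bp upstream of a TSS. ATPsynbeta, the catalytic subunit, had 256.8 (153.7 and 104.9) in its own intron 98 bp downstream of the TSS, with CG11076 as its head-to-head neighbour. These peaks were thus within the genes or at their starts. ATPsynF, a membrane subunit, had 190.3 (125.6 and 71.9) in the gap to CG3548, and ATPsynCF6, of the peripheral stalk, had 169.5 (103.0 and 73.7) in the gap to Sec13. The stalk genes ATPsynB and ATPsynO had 145.6 and 139.1. The central stalk genes ATPsyngamma and ATPsyndelta had none, nor had ATPsynD and ATPsynG, and their pooled signals were 76.5, 35.1, 73.2 and 77.1.

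**Figure D2:**
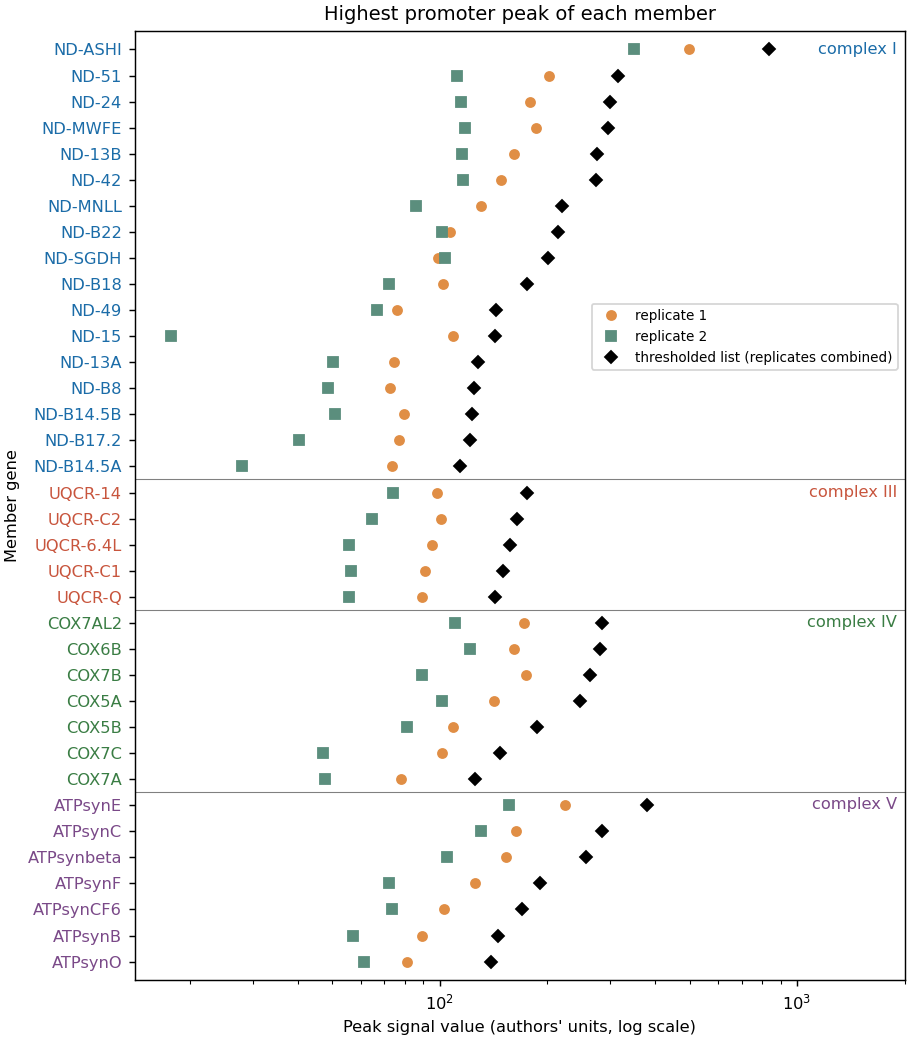
Signal value (authors' units, log axis) of the highest promoter peak of each of the 36 members that have one, in the thresholded list (black) and for the same peak in replicate 1 (orange) and replicate 2 (green), grouped by complex. Each list has its own scale. ND-ASHI stands apart at 833.9, and ND-15 has 17.6 in replicate 2.

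Each of the 36 peaks had a summit within 200 bp in both replicate lists. In 31 (86.1%) it was among the 7329 highest peaks of both replicates, beside 81.8% over all coding genes with a promoter peak. All 36 were among the highest peaks of replicate 1 and 31 among those of replicate 2, beside 4241 and 4104 of the 4615 coding genes. The remaining 5 were COX7A and COX7C, at ranks 7440 and 7546 in replicate 2 and so close to the limit, and ND-B17.2, ND-B14.5A and ND-15, at 9204, 13901 and 21685. The median rank of the members was 3967 in replicate 1 and 3988 in replicate 2, and 22 members stood higher in replicate 1 and 14 in replicate 2. With the 7329 highest peaks of replicate 1 alone, 36 members had a promoter peak, beside 32.9% of all coding genes, and with those of replicate 2 alone it was also 36, beside 33.6%.

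Peaks at the members sat closer to the TSS, and more often past it, than at coding genes as a whole. The highest summit was a median of 1 bp downstream of the TSS, beside 110 bp upstream over all coding genes with a promoter peak, and the median distance on either side was 104.5 bp beside 146 bp. It lay upstream in 18 of 36 genes (50%) beside 73.9%, and within 200 bp on either side in 26 (72.2%) beside 62.8%. By annotation it fell in a 5′ UTR at 13 genes, between genes at 12, in an intron at 8, in a 3′ UTR at 2 and in a coding exon at 1. With the window narrowed to 200 bp, 31 of the 80 members still had a promoter peak, beside 23.3% of all coding genes. Closeness to the TSS was not particular to the members. At genes for cytoplasmic ribosomal proteins the median distance on either side was 34 bp, with 57.0% of summits upstream and 96.2% within 200 bp. At genes for mitochondrial ribosomal proteins it was 131 bp, with 92.1% upstream and 78.9% within 200 bp. No test was made of these differences. The median position of the members depends on the setting, from 90 bp upstream with the 3664 highest peaks to 19 bp downstream with a window of 5 kb. From the highest peaks of replicate 2 or of replicate 1 alone it was -42.5 or -30.5 bp, which is upstream.

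**Figure D3:**
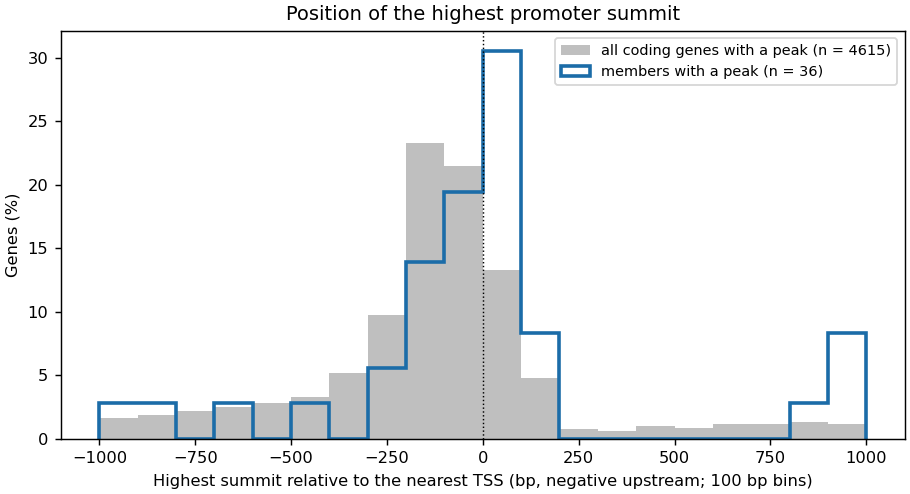
Position of the highest promoter summit relative to the nearest TSS (bp, negative values upstream, bins of 100 bp), as the share (%) of the 36 members with a peak (blue line) and of the 4615 coding genes with a peak (grey). The blue line is highest just downstream of the TSS, where the grey bars are highest upstream.

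Distance leaves a few members at the edge of the 1 kb rule. Just inside were UQCR-6.4L with its nearest summit at 987 bp, ND-B14.5B at 917 bp and COX7AL2 at 530 bp. Just outside were UQCR-11L at 1165 bp, ATPsynD at 1411 bp and ND-39 at 1487 bp. Both paralogue-type genes with a peak were thus among the members with the most distant nearest summit.

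Shared promoters were common in this gene set. A head-to-head neighbour is a coding gene on the other strand that starts within 500 bp upstream. It was present at 38 of the 80 members (47.5%) and at 35 of the 59 non-paralogue ones (59.3%), beside 27.4% of all coding genes. Such a neighbour was also present at 72.6% of genes for mitochondrial ribosomal proteins and at 39.1% of those for cytoplasmic ones. Of the 38, 22 had a promoter peak (57.9%), beside 54.4% of all coding genes with such a neighbour. Of the 42 without one, 14 had a peak (33.3%), beside 25.1% of all coding genes without one. Leaving out the paralogue-type genes, the counts were 22 of 35 and 12 of 24. The count of members with a peak therefore moves with shared promoters, and the part they have in it was not tested. Of the 22 genes with a neighbour and a peak, 10 had their highest summit nearer to another gene. Over all 36 it was 13, and if each summit counts for the nearest coding gene alone, 26 of the 80 members had a promoter peak, beside 24.9% of all coding genes.

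The number of annotated TSSs moved with the counts as well. Of 46 members with 1 TSS, 12 had a promoter peak (26.1%), beside 25.8% of all coding genes with 1 TSS. Of 34 members with 2 or more, 24 had one (70.6%), beside 53.3% of all such coding genes. Most paralogue-type genes are in the first class, and without them it was 11 of 27 and 23 of 32.

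Paralogue-type genes were then set beside the genes they are named after. There are 18 such partner genes for the 21 genes, some under other symbols (levy for the COX6A subunit, cype for COX6C and sun for the epsilon subunit). The tissue in which each copy is expressed was not measured here. A promoter peak was at 11 of the 18 partners, beside 33.1% of all coding genes, and a pooled peak at 17, beside 54.4%. ND-51, levy and COX7A are each the partner in more than 1 pair, so the pairs are not separate counts. In 13 of 21 pairs only the partner had a promoter peak, in 1 only the paralogue, in 1 both and in 6 neither. ND-24L and ND-51L2 had no pooled peak, where ND-24 and ND-51 had 299.7 and 316.0. ATPsynbetaL had none, where ATPsynbeta had 256.8. The other paralogue-type genes with no pooled peak were ND-20L, ND-49L, UQCR-14L, COX4L, COX6AL, COX6AL2, COX6CL, ATPsynCF6L and ATPsynGL. The 7 with only a weaker pooled peak, at a median of 51.7, were ND-51L1, ND-B14.5AL, UQCR-11L, COX5BL, COX7AL, COX7CL and ATPsynepsilonL, with the highest, 86.7, at COX7CL, which lies next to COX7C.

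Both paralogues with a promoter peak went with a peak away from their own start. UQCR-6.4L had 156.7 in the thresholded list, 95.0 in replicate 1 and 55.8 in replicate 2. The summit was 987 bp downstream of its TSS, past its end and inside an intron of Mipp1. COX7AL2 had 283.8, with 172.1 and 110.2, at 623 bp upstream of a TSS and inside its own intron, and a second summit of 121.2 was 530 bp from a TSS. With a window of 200 bp neither gene, and so none of the 21, had a promoter peak.

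**Figure D4:**
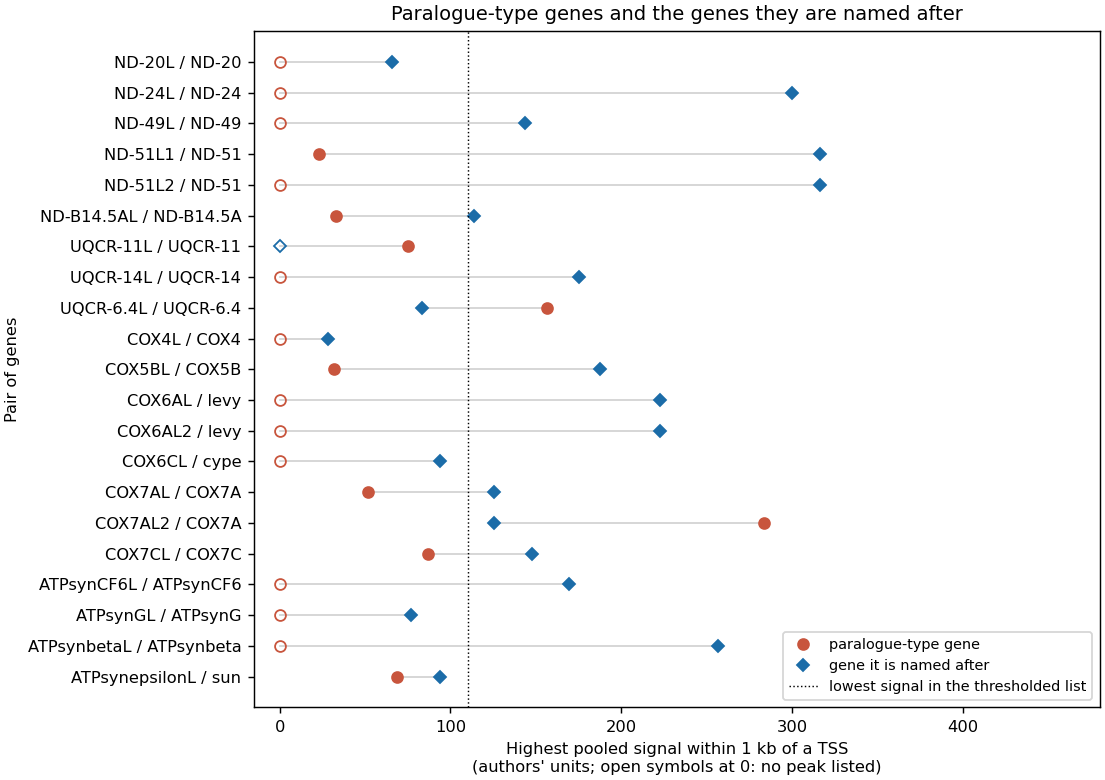
Highest pooled signal (authors' units) within 1 kb of a TSS for each of the 21 paralogue-type genes (red) and for the gene it is named after (blue), joined by a line, with open symbols at 0 where no peak is listed. The dotted line is the lowest signal of the thresholded list (110.1), which 2 red points pass, UQCR-6.4L and COX7AL2.

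One E-box, CAGCTG, was found more often under the member summits than under promoter summits as a whole. It was present within 50 bp of 8 of the 43 member summits (18.6%, interval 8.39 to 33.4%), beside 309 of 4314 summits within 1 kb of any coding TSS (7.16%). The class as a whole, CANNTG, which includes CAGCTG, was in 20 of 43 (46.5%, interval 31.2 to 62.3%). The interval holds the 37.6% of all these promoter summits. Both strands were searched. A split made after seeing the data placed CAGCTG at the summits nearest to a start. Among member summits within 100 bp of a TSS it was in 7 of 23 (30.4%), beside 186 of 1798 summits of all coding genes (10.3%), and beyond 100 bp it was in 1 of 20 (5.0%) beside 4.89%.

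The 9 copies at these 8 summits are printed because they show where the hexamer lies relative to gene starts. Each line gives 30 bases of dm6 on the strand of the gene, with CAGCTG in capitals.
UQCR-C1 (chr3R:14890207-14890236, plus strand, 9 bp upstream of the TSS): attttccacgaaCAGCTGactggccgcagc
ATPsynCF6 (chr3R:23356145-23356174, minus strand, 95 bp upstream of the TSS): atctatatgataCAGCTGacaaatacagga
COX7A (chr3R:8340996-8341025, minus strand, 33 bp downstream of the TSS): atctccagttgtCAGCTGtcatatttcaga
ATPsynO (chr3R:15265608-15265637, plus strand, 32 bp downstream of the TSS): tagccctggtcaCAGCTGagatttttagct
ND-13B (chr3L:10694064-10694093, minus strand, 30 bp downstream of the TSS): agcactgggcaaCAGCTGttacaaaataaa
ND-B18 (chrX:15063881-15063910, plus strand, 23 bp upstream of the TSS): caacgctgtcagCAGCTGtcacttgcaaca
ND-B18 (chrX:15063933-15063962, plus strand, 29 bp downstream of the TSS): gaagaactttgaCAGCTGcggcgcaaccga
ND-B22 (chr2L:13370991-13371020, minus strand, 21 bp downstream of the TSS): ctggacttttgaCAGCTGttgttgttgttg
ND-13A (chr2L:5100203-5100232, minus strand, 15 bp upstream of the TSS): ttgctgttaggcCAGCTGacgctgtcagcc
Distances are to the nearest of all annotated TSSs of the gene. All 9 copies lay within 100 bp of one, 8 of them within 50 bp and 5 downstream of that nearest TSS. The copy 23 bp upstream at ND-B18 and the one at ND-13A lay in an annotated 5′ UTR of the gene, past a TSS further upstream. The hexamer was 1 bp from the summit at COX7A and 43 bp from it at ATPsynCF6. A match describes the sequence and does not show that Fer1 contacts it.

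The same hexamer was counted in the promoters without regard to peaks. Here 1 TSS per gene was used, the one that most of its transcripts share (the most 5′ where tied). From 250 bp before to 50 bp after it, CAGCTG was in 20 of the 59 non-paralogue promoters (33.9%) and in 1 of the 21 paralogue-type promoters (4.76%). It was in 17.8% of all coding promoters and in 22.3% of those with a promoter peak. Over all 80 members it was in 21 (26.3%, interval 17.0 to 37.3%), and the interval holds both of these shares. The class CANNTG was not higher, with 43 of the 59 (72.9%) beside 77.3% of all coding promoters. Within 50 bp of the TSS, a window chosen after seeing the data, CAGCTG was in 17 of 59 (28.8%) and in 0 of 21, beside 9.30% of all coding genes and 13.0% of coding genes with a promoter peak. By complex it was in 13 of 34 complex I genes, 1 of 6 of complex III, 1 of 8 of complex IV and 2 of 11 of complex V. Of the 17 genes, 10 had a promoter peak, near the share of all 59 non-paralogue genes (34, or 57.6%). The 7 without one were ND-18, ND-19, ND-75, ND-B14.7, ND-B15, ND-B17 and ND-PDSW, all of complex I. The counts rose when every annotated TSS of a gene was searched, which was also added after seeing the data. Within 50 bp of any TSS, CAGCTG was then in 22 of 59 (37.3%) and in 0 of 21, beside 11.9% of all coding genes and 18.2% of those with a promoter peak. Of the 22, 14 had a promoter peak, again to be read beside 34 of the 59. The genes gained were ND-24, ND-ASHI, ND-B22, UQCR-C2 and ATPsyngamma, and the copy at ND-B22 is the one printed above.

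Ribosomal protein genes, another large set of widely used genes, give a scale for the members. Of 73 genes for mitochondrial ribosomal proteins, 38 had a promoter peak (52.1%) with a median signal of 182.3, close to the 181.2 of the members. Of 92 genes for cytoplasmic ribosomal proteins, 79 had one (85.9%), with a median of 383.7. The members without paralogue-type genes (57.6%) thus stood between the other lists in share, and all 80 (45.0%) below both.

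Subunits of the same complexes that carry other symbols were listed apart, with complex II and cytochrome c. Of these 17 genes 12 had a promoter peak, beside the 33.1% of all coding genes. The highest were at the cytochrome c genes, Cyt-c-d with 954.3 and Cyt-c-p with 508.5, followed by blw, the alpha subunit of the ATP synthase, with 324.6 and Cyt-c1L with 231.2. All 4 genes of complex II without a paralogue symbol (SdhA, SdhB, SdhC and SdhD) had a peak, from 118.8 to 181.0. SdhAL and SdhBL had none, though SdhBL had a weaker pooled signal of 97.8. Cyt-c1L, also a paralogue by its symbol, went the other way, with a higher peak than the 138.2 of Cyt-c1. The summits of the cytochrome genes were away from their starts, at 398 bp for Cyt-c-d, 928 bp for Cyt-c-p, 678 bp for Cyt-c1L and 894 bp for Cyt-c1.

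Other genes of the same metabolism were mixed. Assembly factors had a promoter peak at 3 of 10 genes found (30%), near the 33.1% of all coding genes. These were CIA30 with 936.9, Cox17 with 293.4 and Sirup with 146.3. Of 15 genes of the tricarboxylic acid cycle and pyruvate dehydrogenase 9 had one (60%, beside the same 33.1%). They were led by Idh3g with 981.4, Fum1 with 833.9 (the peak shared with ND-ASHI), mAcon1 with 460.3 and Ogdh with 247.3. Of 13 regulators of mitochondrial genes and of mitochondrial DNA expression 7 had one (53.8%, beside the same 33.1%). They were led by mtSSB with 300.5, ERR with 244.7, PolrMT with 178.4 and mtTFB2 with 154.0. No promoter peak past the threshold was found at ewg, Ets97D or TFAM in that list.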

How the data were processed

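Peaks of Fer1-eGFP ChIP-seq from 2 biological replicates of whole embryos were analysed as deposited lists. For the dm6 build the authors deposited 30000 peaks per replicate, 30000 for the pooled replicates and 7329 past a reproducibility threshold, in a layout of 10 columns. The pooled list was named by the authors as peaks and background. The aligner, caller, scaling and threshold were absent from the labels and files. Each peak has a signal value, as deposited by the authors, and its scale is unknown. The authors' deposited −log10 q values share a maximum in each list, so the signal was used to order peaks. Read depth is unknown, and so is the precision of single values. The dm3 lists were not used.

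Genes and TSSs (the 5′ end of every transcript) came from Ensembl release 115. Sequence came from the RefSeq copy of the Release 6 assembly, the assembly of dm6, and all peaks lay within its chromosome lengths. Positions are 1-based. A replicate peak was matched when its summit lay within 200 bp. Motifs were searched on both strands. Promoter windows used 1 TSS per gene, the one most transcripts share. Intervals are exact binomial (Clopper-Pearson, 95%) and cover counting error over genes only. The code was tested on simulated data and used Python 3.11.15, numpy 2.4.6, pandas 2.3.3, scipy 1.17.1 and matplotlib 3.10.9.

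With 1 group and no control library, no contrast between conditions was possible, and lists were described by counts beside all coding genes with no test. The members and gene lists were chosen with earlier results of these data known. Values were given by rule for the 5 highest members of each complex, paralogue-type genes with a peak, members nearest to the 1 kb limit and up to 4 genes of each other list. Further members with values were chosen after these were seen. Of the listed symbols, Cox15, Ecsit, Oxa1 and Dld matched no single coding gene and were left out, and Sdhaf4 was found as Sirup. Alternatives changed the window, peak list, TSSs, gene assignment, symbol rule, motif windows and replicates.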

Additional observations from a re-analysis of the deposited data

How the results depend on the processing

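With a window of 5 kb the count of members with a promoter peak was 57 (complex I 28, complex IV 11, complex V 11, symbols ending in L 6), beside 54.1% of all coding genes, the median signal 263.2 and the median position 19 bp downstream. With the 3664 highest peaks it was 18 (complex I 9, complex III 0, complex V 4, symbols ending in L 0, others 18), with a median signal of 275.4 and a median position of -90 bp. With all pooled peaks it was 64 (complex I 33, complex IV 12, complex V 12, symbols ending in L 7, others 57), with a median signal of 125.4 and a median position of -10 bp. Symbols ending in L had 0 with windows of 200 and 500 bp, 2 with ND-MNLL included and 2 with symbols in L and a digit. With each summit given to the nearest gene, complex I had 11 and complex IV 4, and the median position was 11.5 bp. It was 10 bp with a window of 200 bp and 16 bp with 1 TSS per gene. With 1 replicate left out, the median signal was 77.1 to 107.8, on the scale of single lists, the median position -42.5 to -30.5 bp, and the count for symbols ending in L 0 to 1, being 0 without replicate 2. The cause of these shifts was not tested, beyond the longer or shorter list or window. The other 55 values over these alternatives stayed within 1.5 times for counts, and for medians within the SD between the replicates. CAGCTG within 50 bp of the TSS was in 21.3% of member promoters, a window added after seeing the data, beside 26.3% in the longer window. Around every TSS of the gene, also added later, the shares were 27.5 and 32.5%. No paired analysis was possible because all samples form 1 group.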

Other observations

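Core promoter sequences known from Drosophila were counted from 250 bp before to 50 bp after the TSS, on both strands, without regard to peaks. GTATATTT was in 12 of the 80 member promoters (15.0%), all of them non-paralogue genes, beside 5.63% of all coding promoters. GGTCACAC was in 14 (17.5%) beside 7.79%, with 13 of the 14 at non-paralogue genes. TATCGATA, the DNA replication-related element, was in 9 (11.3%) beside 9.24%, and none of the 9 was paralogue-type.

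The sequence TTATGTAA, described as the core of an element shared by nuclear respiratory genes of flies, was in 3 of 80 (3.75%) beside 2.13%. TTACGTAA, CCGGAAG and GCGCATGC were in 0 of 80, beside 0.459, 1.05 and 1.07% of all coding promoters, and a count of 0 allows a share of up to 4.51% by the exact interval. GAGAG was in 16 (20%) beside 30.3%. A missing match says only that these letters were not in this window.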
